A study of Drosophila melanogaster with 6 samples.

Results

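Genes for digestive proteases, glycosidases and a lipase were examined in whole Drosophila melanogaster embryos that made the transcription factor Sage throughout the body. Although the set includes LMan mannosidases of the lysosomal type, its genes are called digestive enzyme genes here. The genes were chosen by symbol. They comprise the Jonah (Jon) serine proteases, the named trypsins (from alphaTry to zetaTry), the maltases Mal-A and Mal-B, the amylases Amy-p and Amy-d, the LMan mannosidases and the lipase gene mag. Of 45 such genes in the RefSeq annotation of Release 6, 38 had a probe set that named them alone, out of 11982 genes with such a probe set on the array, and each of the 38 had exactly 1. The 38 are 13 Jonah proteases, 8 trypsins, 10 maltases, 6 mannosidases and mag. The other 7 were Amy-p, Amy-d, gammaTry, deltaTry, Jon99Cii, Jon99Ciii and Jon99Fii.

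RNA came from embryos of stages 11 to 16, which had developed at 25 C and passed through a COPAS biosorter, and was measured on Affymetrix arrays. The control group was 3 samples of the tub-Gal4 strain. The Sage group was 3 samples in which the tub-Gal4 driver, active in most cells, expressed a UAS-Sage transgene. All 6 samples therefore carried the driver, and the labels describe the controls as age matched and handled alike. The labels name no UAS transgene in the controls. Whether replicates were independent embryo collections is not stated, and every p-value therefore reflects the spread among these arrays alone, part of which may be technical.

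The midgut of the fly forms from the endoderm late in embryogenesis, and its cells secrete enzymes that digest food after hatching. Trypsins and the chymotrypsin-like Jonah proteases cut dietary protein. Amylases break starch into short sugars, and maltases, which are alpha-glucosidases, release glucose from maltose and sucrose. The LMan genes encode alpha-mannosidases of the lysosomal type, which trim mannose from glycans, and magro (mag) encodes a lipase secreted by the anterior gut. Several of these families lie in tandem arrays of related genes. Sage is a basic helix-loop-helix factor whose normal site of expression is the embryonic salivary gland.

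Values were log2 signals of probe sets, on which a difference of 1 is a factor of 2, and the number of arrays limits the precision. The sage probe set rose from 7.52 ± 0.14 to 12.47 ± 0.07 (SD, n = 3), at adjusted p = 1.96e-05 by limma. Across all probe sets, which are not independent replicates, Pearson's r lay between 0.938 and 0.987 among controls and between 0.989 and 0.996 among Sage arrays. The hybridisation control BioB was higher on Sage arrays by 1.39 and the labelling control Dap differed by -0.66, both without overlap between the groups. The excess of 3' over 5' signal, a measure of RNA integrity and amplification, was larger with Sage for Act5C (by 0.58) and eIF4A (by 0.43) without overlap, while for GAPDH it differed by -0.35 and the groups overlapped. Handling and genotype cannot be told apart for these measures. In whole embryos, fewer cells of a type and less RNA per cell cannot be told apart either.

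Most digestive enzyme genes did not pass the test. A gene was called where limma's two-sided p, adjusted by Benjamini-Hochberg over all 18769 probe sets tested, was under 0.05. Jon25Biii and Mal-B1 rose with Sage, Jon44E fell, and the other 35 of the 38 were not called. The 3 called genes are 7.89% of the 38, against 13.7% of all probe sets. By direction, 2 of 38 were called higher against 4.25% of all probe sets, and 1 of 38 lower against 9.45%.

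The median difference (Sage minus control) was 0.05 over the 38 genes and 0.00032 over all probe sets. Of the 38, 20 had a positive and 18 a negative difference. The size of the differences was larger than on the array at large, with a median absolute difference of 0.48 against 0.17. The control arrays also differed more in these genes, with a median control SD of 0.55 against 0.16 over all probe sets. The median SD of the Sage arrays was 0.18 for the 38 genes and 0.11 over all probe sets. In 12 of the 38 genes (31.6%) the arrays of both groups did not overlap, against 34.7% of all probe sets. That comprised 8 genes higher with Sage, against 16.6% of all probe sets, and 4 lower, against 18.1%.

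The number of calls depended on single arrays, among the 38 genes and across the array. Without control replicate 1, 7 of the 38 were called higher, and the count over all probe sets was 1276, against 797 with all arrays. Without control replicate 2, Sage replicate 2 or Sage replicate 3, only Jon25Biii was called higher, and none of the 38 was called lower without any of those arrays or without Sage replicate 1. Without control replicate 3, 5 genes were called lower, namely Jon44E, Jon25Bi, Jon25Bii, Jon74E and Mal-B2, and the count over all probe sets was 1955, against 1774 with all arrays. Over all probe sets 465, 369 and 266 were called higher without control replicate 2, Sage replicate 2 and Sage replicate 3. With any 1 array left out, including control replicate 3, the higher count lay between 266 and 1276. Lower calls over all probe sets numbered 1228 without control replicate 2. They numbered 1159, 1178 and 934 when Sage replicate 1, 2 or 3 was left out.

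**Figure D1:**
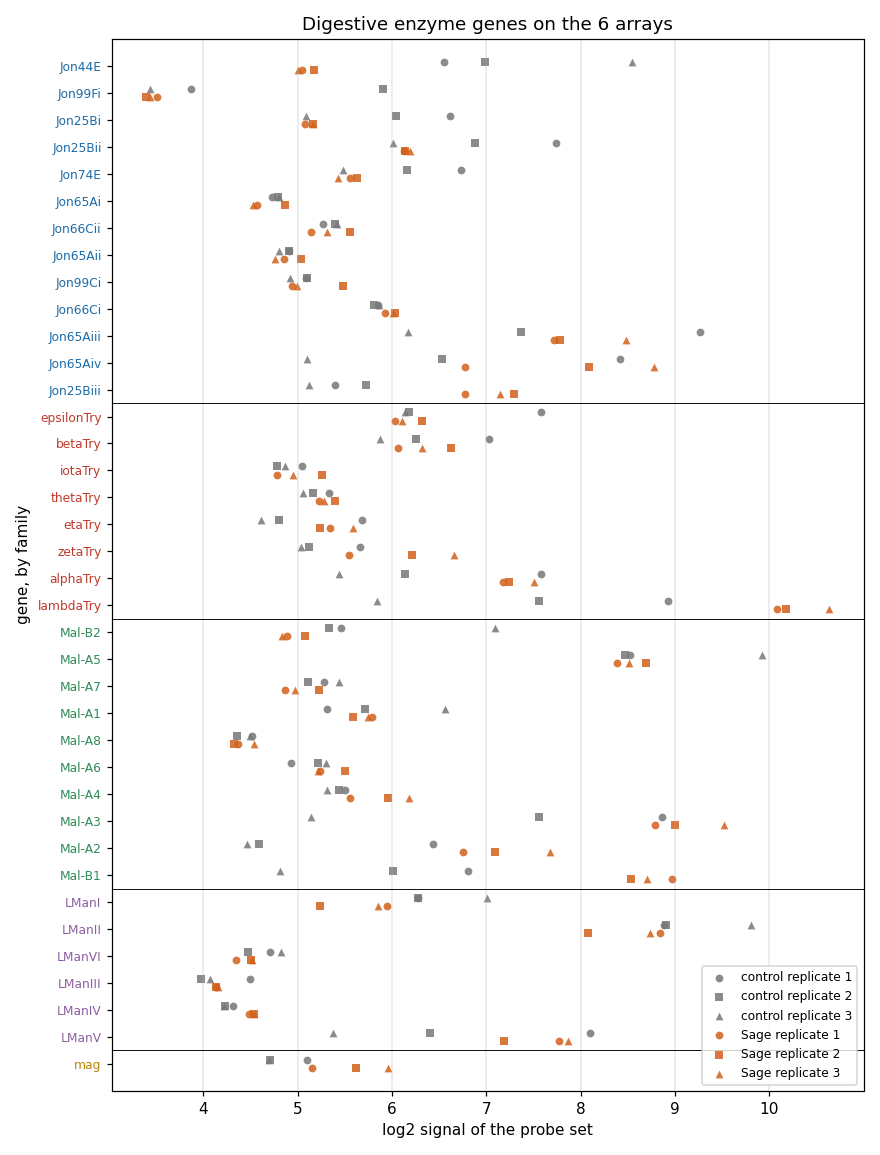
Log2 signal of each of the 38 genes (rows, coloured by family) on the 6 arrays, with controls in grey and Sage arrays in orange. The control points are widely spread for genes such as Mal-A3 (5.14 to 8.86) and lambdaTry (5.84 to 8.92), while the Sage points of lambdaTry lie between 10.08 and 10.64.

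Among the 13 Jonah proteases, 1 rose, 1 fell and 11 were not called, with a median difference of -0.02. Jon25Biii had log2 signals of 5.40, 5.72 and 5.11 in control replicates 1, 2 and 3 and of 6.77, 7.30 and 7.15 in Sage replicates 1, 2 and 3. All 3 Sage arrays lay above all controls. The SDs of 0.30 among controls and 0.27 among Sage arrays exceeded the medians over all probe sets, 0.16 and 0.11. The group means were 5.41 ± 0.30 and 7.07 ± 0.27 (SD, n = 3), a 3.17-fold rise (log2 difference 1.66, SE 0.20, adjusted p = 0.00482 by limma). The control mean stood at the 45.9th percentile of all probe sets, below the median level, so the size of this rise is approximate. An exact permutation test (two-sided) gave p = 0.1, which is the lowest value possible with 3 arrays against 3. Its call held without each of the 6 arrays in turn, with adjusted p-values by limma from 0.00478 to 0.0341.

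Jon44E encodes another protease of this family. Its control signals were 6.55, 6.98 and 8.54, and its Sage signals were 5.04, 5.17 and 5.01. The groups did not overlap, the controls ranged over 1.99 log2 units with replicate 3 highest, and the Sage values were nearly equal. The means of 7.36 ± 1.05 and 5.07 ± 0.09 (SD, n = 3) gave a difference of -2.28 (SE 0.50, adjusted p = 0.0349 by limma), or 4.86-fold, and an exact permutation p of 0.1. With Sage the signal stood at the 37.4th percentile of all probe sets, below the median level, so the size of this fall is approximate. The call was lost without control replicate 2 (adjusted p = 0.0754 by limma). It was also lost when Sage replicate 1, 2 or 3 was left out (adjusted p = 0.114, 0.112 and 0.133 by limma). The difference was then -2.47, -2.27, -2.33 and -2.25.

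Jon65Aiii had the highest mean signal of the Jonah family and showed the widest disagreement among controls next to Jon65Aiv. Its control signals were 9.27, 7.36 and 6.16, and its Sage signals were 7.72, 7.78 and 8.48. All Sage values lay inside the range of the controls, and the difference of 0.40 (SE 0.77) was not called (adjusted p = 0.813 by limma). Jon65Aiv had control signals of 8.42, 6.53 and 5.09 and Sage signals of 6.77, 8.08 and 8.78. The Sage arrays also differed among themselves in this gene, by 2.01 log2 units, and the groups overlapped. Its difference of 1.20 (SE 0.93) was not called (adjusted p = 0.489 by limma).

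Jon25Bi, Jon25Bii and Jon74E shared a shape in which control replicates 1 and 2 stood above every Sage array while control replicate 3 lay close to the Sage arrays. Jon25Bi had control signals of 6.61, 6.04 and 5.09 against 5.08 to 5.17 with Sage, and Jon25Bii 7.74, 6.88 and 6.01 against 6.13 to 6.19. Jon74E had 6.73, 6.16 and 5.48 against 5.43 to 5.63. Their differences of -0.78, -0.73 and -0.59 were not called (adjusted p = 0.25, 0.341 and 0.297 by limma). Without control replicate 3 all were called, at -1.19, -1.16 and -0.91 (adjusted p = 0.00872, 0.0311 and 0.0251 by limma). Jon99Fi was at 5.90 in control replicate 2 and between 3.39 and 3.87 on the other 5 arrays, near the bottom of the signal range, and was not called (difference -0.95). Jon65Ai, Jon65Aii, Jon66Ci, Jon66Cii and Jon99Ci had group means between 4.65 and 5.99 and differences between -0.12 and 0.15.

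None of the 8 trypsin genes was called, and 6 of them had a positive difference (median 0.23). lambdaTry was the brightest and had the largest difference, with control signals of 8.92, 7.56 and 5.84 and Sage signals of 10.08, 10.18 and 10.64. Every Sage array lay above every control, while the controls themselves spanned 3.08 log2 units with replicate 3 lowest. The means were 7.44 ± 1.54 and 10.30 ± 0.29 (SD, n = 3), and the difference was 2.86 (SE 0.75, 7.26-fold), at adjusted p = 0.0596 by limma and exact permutation p = 0.1. Its 95% interval by limma ran from 1.03 to 4.69. lambdaTry was called without control replicate 1 (difference 3.60, adjusted p = 0.011 by limma) and without control replicate 3 (2.06, adjusted p = 0.0249). It was also called when each array was centred on its median, when dim probe sets were left out by either rule and with a trended prior. Testing 1 probe set per gene and both forms of array weights called it too, but 1 of these weight estimates did not converge. Thus 9 of 16 alternative settings called lambdaTry. The remaining settings did not. Limma's adjusted p was 0.051 after quantile normalization, 0.0645 under a robust prior and 0.125 in the block design. Dropping control replicate 2 raised it to 0.145. Dropping a Sage array raised it to 0.148, 0.162 and 0.203 for replicates 1, 2 and 3.

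The other trypsins were closer to the middle of the signal range. alphaTry had control signals of 7.58, 6.13 and 5.43 and Sage signals of 7.18, 7.24 and 7.502, so the Sage arrays were nearly equal and lay below control replicate 1. Its difference of 0.93 was not called (adjusted p = 0.338 by limma), but it passed without control replicate 1 (difference 1.53, adjusted p = 0.0134 by limma). epsilonTry had the lowest difference of the family, with control signals of 7.58, 6.18 and 6.14 and Sage signals of 6.03, 6.32 and 6.10. Control replicate 1 alone stood apart there, and the difference of -0.48 (SE 0.40) was not called (adjusted p = 0.522 by limma). zetaTry had means of 5.27 ± 0.34 and 6.14 ± 0.56 (SD, n = 3; adjusted p = 0.15 by limma). etaTry had a difference of 0.36 and was called without control replicate 1 (0.68, adjusted p = 0.0328 by limma). betaTry, iotaTry and thetaTry had differences of -0.05, 0.10 and 0.11.

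Of the 10 maltase genes, Mal-B1 rose and 9 were not called, with a median difference of 0.06. Mal-B1 had control signals of 6.81, 6.01 and 4.81 and Sage signals of 8.97, 8.53 and 8.70. The groups were far apart, with the lowest Sage array above the highest control, and control replicate 3 was the lowest array. The means were 5.88 ± 1.01 and 8.73 ± 0.22 (SD, n = 3), a 7.26-fold rise with a difference of 2.86 (SE 0.49, adjusted p = 0.0151 by limma, exact permutation p = 0.1). Without control replicate 2 or Sage replicates 1, 2 and 3 the adjusted p was 0.0525, 0.0653, 0.0577 and 0.0701 by limma, with differences of 2.93, 2.74, 2.96 and 2.87.

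Mal-B2 had control signals of 5.46, 5.34 and 7.09 and Sage signals of 4.89, 5.07 and 4.83. It was lower on every Sage array than on any control, with most of the control spread due to replicate 3. Its difference of -1.03 (SE 0.47) was not called (adjusted p = 0.235 by limma). Without control replicate 3 it was called at a smaller difference of -0.47 (adjusted p = 0.0395 by limma).

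Mal-A2 and Mal-A3 had differences near 2 that were not called. Mal-A2 had control signals of 6.43, 4.59 and 4.46 and Sage signals of 6.76, 7.09 and 7.67. The groups did not overlap, and control replicate 1 was the closest control to the Sage arrays. The difference was 2.01 (SE 0.57, adjusted p = 0.0763 by limma, exact permutation p = 0.1), and Mal-A2 was called without control replicate 1 (2.65, adjusted p = 0.00593 by limma). Mal-A3 had control signals of 8.86, 7.56 and 5.14 and Sage signals of 8.78, 8.99 and 9.52. Control replicate 1 lay within the Sage range, and the difference of 1.91 (SE 0.91) was not called (adjusted p = 0.253 by limma).

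Mal-A5 was the brightest maltase, with control signals of 8.53, 8.47 and 9.93 and Sage signals of 8.38, 8.69 and 8.51. Only control replicate 3 stood apart, and the difference of -0.44 (SE 0.40) was not called (adjusted p = 0.566 by limma). Without control replicate 3 it was 0.03. Mal-A4 was higher on all Sage arrays, with means of 5.42 ± 0.10 and 5.90 ± 0.31 (SD, n = 3; adjusted p = 0.136 by limma), and was called without Sage replicate 1 (0.65, adjusted p = 0.0419 by limma). Mal-A1, Mal-A6, Mal-A7 and Mal-A8 had group means between 4.41 and 5.86 and differences between -0.26 and 0.17.

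The amylase genes Amy-p and Amy-d, which encode near-identical enzymes, shared 1 probe set and were not separated. Its signals were 6.57, 6.53 and 6.98 in the controls and 6.71, 6.99 and 7.01 with Sage. The groups overlapped, and the difference of 0.21 (SE 0.16) was not called (adjusted p = 0.48 by limma).

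None of the 6 mannosidase genes was called (median difference -0.12). LManII was the brightest, with control signals of 8.88, 8.90 and 9.80 and Sage signals of 8.84, 8.08 and 8.74. LManI, the neighbouring gene, had control signals of 6.28, 6.28 and 7.01 and Sage signals of 5.94, 5.24 and 5.85. Both were lower on every Sage array than on any control, with control replicate 3 highest and Sage replicate 2 lowest in each. The differences of -0.64 (SE 0.32) and -0.84 (SE 0.28) were not called (adjusted p = 0.281 and 0.114 by limma).

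LManV was the mannosidase gene with the largest positive difference. Its control signals were 8.10, 6.40 and 5.38 and its Sage signals were 7.77, 7.19 and 7.87. The Sage arrays lay between control replicates 1 and 2, and the difference of 0.98 (SE 0.68) was not called (adjusted p = 0.432 by limma). It passed without control replicate 1 (1.72, adjusted p = 0.0323 by limma). LManIV was a dim probe set with means of 4.25 ± 0.05 and 4.52 ± 0.03 (SD, n = 3; adjusted p = 0.07 by limma) and no overlap. LManIII and LManVI had differences of -0.04 and -0.21 at means between 4.14 and 4.67, among the dimmest of the 38.

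The lipase gene mag had control signals of 5.10, 4.71 and 4.69 and Sage signals of 5.15, 5.62 and 5.96. Every Sage array was above every control, but Sage replicate 1 and control replicate 1 were nearly equal. The difference of 0.74 (SE 0.23) was not called (adjusted p = 0.0998 by limma). Both group means were below the median of all probe sets.

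**Figure D2:**
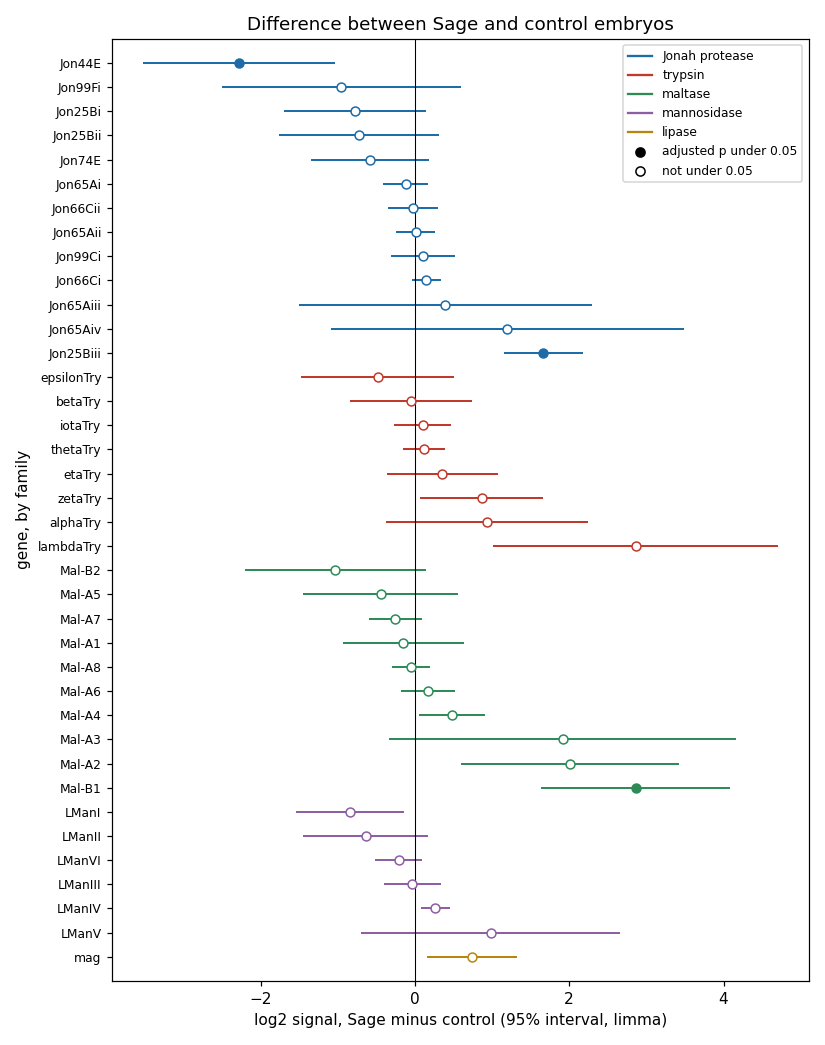
Difference in log2 signal, Sage minus control, for each of the 38 genes with its 95% interval by limma (n = 3 per group), coloured by family. Filled points mark Jon25Biii, Mal-B1 and Jon44E, which had an adjusted p under 0.05. The interval of lambdaTry, from 1.03 to 4.69, lies above 0 although its adjusted p was 0.0596.

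The differences of neighbouring genes had opposite signs in some places and the same sign in others, and most of these differences were not called. No test of neighbours was made. Gene order was taken from the RefSeq annotation of Release 6. On chromosome arm 2L, Mal-B1 (difference 2.86) lies beside Mal-B2 (-1.03) with no coding gene between them. On the same arm Jon25Biii (1.66) is followed by Jon25Bii (-0.73) and Jon25Bi (-0.78). LManI (-0.84) and LManII (-0.64), neighbours on that arm, both had negative differences. In the Mal-A array of 8 adjacent genes, the largest differences were those of the neighbours Mal-A2 (2.01) and Mal-A3 (1.91), and the next in order was Mal-A4 (0.48). The remaining 5 genes of that array had differences between -0.44 and 0.17.

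In the trypsin array, which begins with lambdaTry (2.86) and ends with iotaTry (0.10), the differences of zetaTry, etaTry, thetaTry and alphaTry were positive too, while those of epsilonTry and betaTry, the next in order, were negative. The gene kappaTry lies between lambdaTry and zetaTry and is outside the symbol rule. It was looked up after the values of its neighbours were seen. Its control signals were 6.33, 5.32 and 4.82 and its Sage signals were 6.09, 6.30 and 6.80. They overlapped, and the difference of 0.91 (SE 0.41) was not called (adjusted p = 0.227 by limma). On arm 3L, Jon65Aiv (1.20) and Jon65Aiii (0.40) lie next to Jon65Aii (0.01) and Jon65Ai (-0.12).

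**Figure D3:**
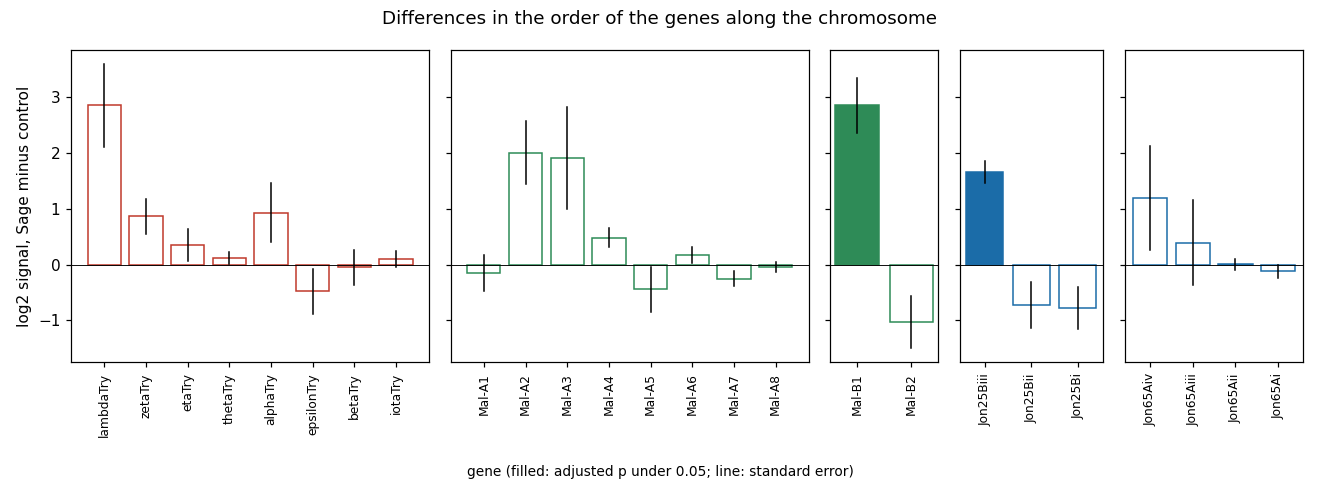
Difference in log2 signal, Sage minus control, for 5 arrays of related genes in their order along the chromosome, with 1 standard error (vertical lines) and bars filled where the adjusted p was under 0.05. Mal-B1 (2.86) and Mal-B2 (-1.03) are neighbours, as are Jon25Biii (1.66) and Jon25Bii (-0.73). Genes with no probe set of their own, and kappaTry, are not drawn.

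The controls varied widely among themselves in digestive enzyme genes. In 19 of 38 genes (50%) the control arrays differed by over 1 log2 unit, against 12.5% of all probe sets, and this held for 7 Jonah proteases, 5 trypsins, 6 maltases and 1 mannosidase. On the Sage arrays 2 of 38 differed by that much, Jon65Aiv and zetaTry. In 14 of the 19 genes control replicate 1 was the highest control and replicate 3 the lowest, among them Mal-B1, Mal-A2, Mal-A3, lambdaTry, alphaTry, LManV, Jon65Aiii and Jon65Aiv. In 4 of the 19 replicate 3 was the highest (Mal-A1, Mal-A5, Mal-B2 and Jon44E), and in Jon99Fi it was replicate 2. Over all probe sets whose controls differed by over 1 unit, 1357 were highest in control replicate 1, 253 in replicate 2 and 733 in replicate 3. This spread was not particular to the digestive enzyme genes. It was found in 17 of 28 genes of the gut wall, transport and peritrophic matrix (60.7%). Among genes of the late epidermis and cuticle it was found in 33 of 45 (73.3%). Control replicate 1 was the highest in all 17 and in 32 of the 33. The other gene lists had shares between 18.2% and 30.4%. Among the genes with this spread, control replicate 3 was highest in all 4 regulators of endoderm and gut. It was also highest in all 7 germline and maternal transcripts. Control replicate 1 was highest in 10 of the 12 other digestive genes and in the 2 yolk and fat body genes.

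Relative to the Sage mean, the trypsin genes had a median of 0.16 in control replicate 1, -0.40 in replicate 2 and -0.62 in replicate 3. The order of the controls was not shared by all families. On the same control arrays the medians were 0.42, 0.06 and -0.08 for Jonah proteases. They were -0.32, -0.08 and 0.03 for maltases, the reverse order, and 0.34, -0.08 and 0.15 for mannosidases. Over all 38 genes the medians were 0.09, -0.09 and -0.13. Genes of the late epidermis and cuticle, which mark late embryos, had medians of -0.35, -1.74 and -3.44 on the same arrays (45 genes, of which 6 rose and none fell). Germline and maternal transcripts had medians of 1.48, 1.40 and 2.31 (23 genes, of which none rose and 13 fell). The count of cuticle genes called higher was 27 without control replicate 1 and 10 without control replicate 3. Leaving out Sage replicate 1, 2 or 3 gave 4, 2 and 2. Named by the size of their change, TwdlN and TwdlP rose by 4.02 and 3.09, and the maternal genes swa and plu fell by 4.48 and 4.37 on the log2 scale. The part of these differences between arrays in the values of the digestive genes was not tested.

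**Figure D4:**
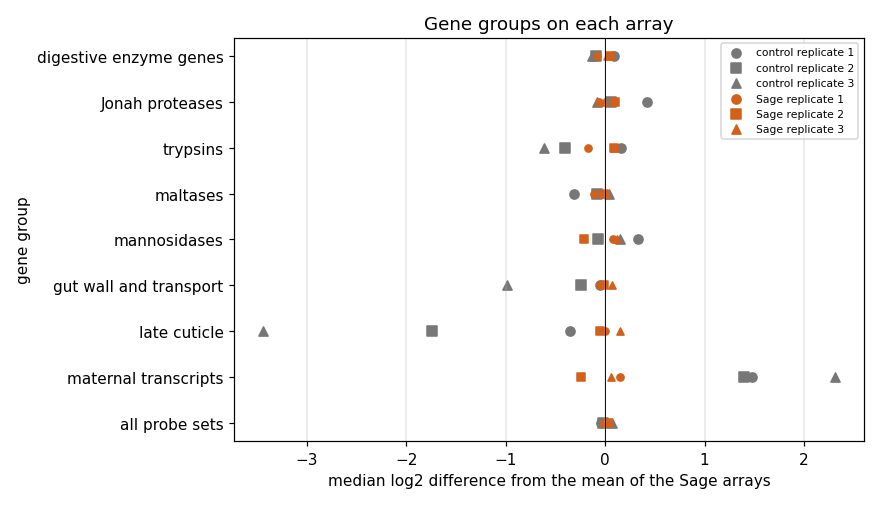
Median log2 difference of each gene group from the mean of the Sage arrays, for the 3 controls (grey) and the 3 Sage arrays (orange). In the late cuticle group control replicate 3 is at -3.44 and control replicate 1 at -0.35, and in the trypsins they are at -0.62 and 0.16. In the maltases the order is reversed, at 0.03 and -0.32.

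Markers of the gut were present in all samples. All 8 of 9 listed gut markers with a probe set of their own (GATAe, srp, Hnf4, Inx7, Ssk, mesh, Tsp2A and Vha100-4) had a control mean above the median of all probe sets, and none of them was called. Their summed signal on the linear scale ran from 2804 in control replicate 3 to 8290 in control replicate 1, and from 8654 to 10054.5 with Sage. One of the 8, srp, is also a hemocyte factor. GATAe, the endodermal GATA factor, had means of 9.21 ± 0.53 and 10.005 ± 0.02 (SD, n = 3; adjusted p = 0.114 by limma). mesh, of the smooth septate junctions of the gut, had 9.15 ± 1.17 and 10.81 ± 0.15 (SD, n = 3; adjusted p = 0.122 by limma).

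Summed markers of the salivary gland, hemocytes, epidermis and fat body and yolk also differed between the groups without overlap, while muscle markers overlapped. Salivary gland markers summed to between 1186 and 1473 in the controls and between 8621 and 9696 with Sage, a sum that includes sage itself, and 3 of 4 measured rose. Hemocyte markers summed to between 2702 and 4001 and between 7610 and 7987, with 3 of 5 higher. Epidermal markers summed to between 1415 and 4673 and between 7691 and 9310, with 2 of 4 higher. Fat body and yolk markers summed to between 198 and 223 and between 282 and 295, with 1 of 5 higher. That gene was Yp3 (difference 1.18). Yp1, Yp2, Fbp1 and Lsp2 differed by -0.03, -0.16, 0.06 and 0.28 and were not called, so the sum does not describe the whole list. The 2 muscle markers measured, neither called, summed to between 2132 and 15981 and between 15737 and 16208. Their part in the digestive gene values was not tested.

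Among 51 other genes measured, listed as digestive or gut lumen genes, 10 rose, 1 fell and 40 were not called (21.6% called, median difference 0.06). The list is broader than digestive enzymes, since it also holds cathepsin genes and Npc2 genes. Npc2c, Npc2e and Npc2g were among the rises. The largest rises were those of Npc2e (5.001, adjusted p = 0.00226 by limma) and Npc2c (3.25, adjusted p = 0.00131), which belong to the NPC2 family of sterol carriers. cathD, the gene of the aspartic protease cathepsin D, fell by 1.41 on the log2 scale (adjusted p = 0.000912 by limma), from 11.64 ± 0.07 to 10.23 ± 0.08 (SD, n = 3). Without each array in turn, 7 to 13 of these genes were called higher, and 1 was called lower except without control replicate 1, when 2 were.

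Of 18 regulators of endoderm and gut measured, none rose and 1 fell, with a median difference of 0.03. The gene called was cad, which encodes a hindgut and posterior homeodomain factor, at 9.48 ± 0.03 in the controls and 8.51 ± 0.13 with Sage (SD, n = 3; difference -0.97, adjusted p = 0.0023 by limma). Without control replicate 1, 3 regulators were called lower, and without control replicate 3 1 was called higher. cad RNA is also laid down in the egg by the mother. Of 28 genes of the gut wall, transport and peritrophic matrix, none was called, with a median difference of 0.32 and 22 positive differences, and 7 (25%) had a p under 0.05 by limma before adjustment, against 26.6% of all probe sets. Acbp4, of the acyl-CoA binding proteins, had 7.29 ± 2.09 and 10.01 ± 0.20 (SD, n = 3; adjusted p = 0.149 by limma), and Peritrophin-A had 8.45 ± 1.62 and 10.12 ± 0.09 (SD, n = 3; adjusted p = 0.239 by limma). Without control replicate 1, 5 of the 28 were called higher. Without control replicate 3, 3 were called higher and 2 lower. Over all probe sets the higher count without that array is not given here, but it lay between 266 and 1276.

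Salivary gland effector genes numbered 15 measured, of which 6 rose and none fell (median difference 0.77). Eig71Ee rose by 5.12 and Sgs4, a glue gene, by 3.26 on the log2 scale (adjusted p = 0.000144 and 0.00131 by limma). Of 11 yolk and fat body genes, Yp3 rose by 1.18 (adjusted p = 0.00149 by limma) and 10 were not called (median difference 0.19), while 2 rose without control replicate 1 and 3 without control replicate 3.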

How the data were processed

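Whole-embryo RNA of 6 samples was amplified, labelled with biotin and hybridised to 1 array each, per the labels' protocols. The deposited values are log2 signals per probe set, and RMA and Partek are named without a version in the submitters' processing notes. RMA subtracts background, equalises the arrays' distributions and summarises probes, so a change in total RNA per embryo is not visible and differences between dim probe sets are compressed. Scanner files were not used here.

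Of 18952 probe sets, 183 controls were left out and 18769 tested. Of these, 13647 named 1 gene, 402 several and 4720 none in the platform annotation, and 13544 took their current RefSeq symbol (Release 6) by Entrez identifier. Groups were compared with limma 3.58.1 in R 4.3.3 (lmFit, eBayes, 6 arrays, no covariate, Benjamini-Hochberg threshold 0.05). Exact two-sided permutation tests on single genes cannot go below 0.1. The fit was also run on simulated arrays with independent noise of the same spread in both groups. That run cannot address the larger spread among these controls, and its outcome is not given here. Values on every array were given by rule for called genes, each family's brightest gene and largest differences in both directions, and the 8 largest absolute differences. Array values of other genes (Jon25Bi, Jon25Bii, Jon74E, Jon99Fi and alphaTry), some as ranges, were added after they were seen. From each other list the rule named the 2 largest called rises and falls, or the 2 largest differences where none was called. The genes and lists were chosen with earlier results of these data known. Array medians lay between 5.56 and 5.69 in the controls and between 5.70 and 5.74 with Sage, without overlap (difference of means 0.09). The median difference of 0.05 over the 38 genes is smaller than that shift. Alternatives were left-out arrays, filters, scalings, priors, array weights, 1 probe set per gene and the replicate block.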

Additional observations from a re-analysis of the deposited data

How the results depend on the processing

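With 3 arrays a group and 4 residual degrees of freedom, limma's calls depended on single arrays and on array weights. Without each array in turn, 1 to 7 of the 38 genes were called higher and 0 to 5 lower, the median difference ran from -0.032 to 0.123, and 266 to 1276 probe sets were called higher and 934 to 2035 lower. With the replicate number as a block, 0 of the 38 genes were called lower, and 341 probe sets were called higher and 1057 lower. The numbers share no stated origin, and same-numbered arrays did not deviate together (r of -0.126, -0.068 and -0.248), so they do not pair the samples. Array weights called 15 of the 38 higher and 8 lower, and 4869 probe sets higher and 4922 lower, but that estimate did not converge and gave control replicate 2 a weight of 32. Gene-by-gene array weights, chosen after seeing the data, called 9 higher and 5 lower, and 2243 probe sets higher and 2771 lower. Leaving out dim probe sets by signal or by mean called 4 higher, out of 16 and 19 genes kept. A trended prior called 4 of the 38 higher. Both filters also reduced the number of probe sets in the adjustment. Counts over all probe sets for these settings are not given here, so the 4 calls stand without that comparison. The signal filter kept 16 of the 38, whose median difference was 0.66. A gene could pass that filter through the Sage arrays alone, so the value describes a selected subset, and the filter changed no gene's own difference. The cause of the other shifts was not tested. Comparisons with the main fit were counted over the 15 genes named by rule, without those added later. Of these comparisons, 199 kept direction and side of the threshold, 25 passed it newly and 9 lost it. Another 3 changed sign without being called on either side. These were Jon65Aiii and Mal-A5 without control replicate 3, and Mal-A5 at 0.0374 with array weights. Without each array in turn, Jon65Aiii ran from -0.322 to 1.23 and Mal-A5 from -0.697 to 0.0321. Using another probe set of a gene was not run, since each of the 38 has 1. Signals below the median of all probe sets limit the values of 15 genes, which lay below it in both groups, and the size of the change in genes below it in 1 group, such as Jon25Biii and Jon44E.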
